A study of Mus musculus with 3 samples.

Results

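The metalloproteases of the ADAM, ADAMTS and MMP families and their TIMP inhibitors were followed in the renal corpuscle of the adult mouse, where the nephron filters blood through a capillary tuft. Members were every gene whose annotated symbol begins with Adam, Adamts (the Adamtsl genes included) or Mmp followed by its number, and Timp1 to Timp4. Of 19938 genes named by a probe set of their own, 83 met this rule, and they were measured by 108 probe sets. Of them 34 were ADAM genes, 22 MMP genes, 18 ADAMTS genes, 5 Adamtsl genes and 4 TIMP genes. The rule for the genes rests on symbols, and where a gene had several probe sets, that of highest mean signal stood for it.

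ADAM proteases sit in the cell membrane and cut the outer parts of growth factors, receptors and adhesion molecules from the surface, which is called shedding. ADAMTS and MMP proteases are mostly secreted and cut proteoglycans, collagens and other matrix proteins, while the membrane-type MMPs act at the cell surface. TIMP proteins block many of these enzymes. In the glomerulus the families are known for turnover of the basement membrane and mesangial matrix and for shedding on podocytes and endothelium.

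The data are 3 gene array profiles of renal corpuscle from wild-type CD-1 male mice, an outbred stock, aged 7 to 9 weeks. Each profile came from pooled tissue of approximately 2 kidneys, digested in 0.5% collagenase A at 37 °C for 15 minutes and passed through filters of 100, 70 and 40 µm. Collagenase A is a bacterial enzyme that loosens tissue, and no cell type was sorted. RNA was amplified in 1 round. All samples form 1 group, so the values describe presence and spread, with no comparison between conditions, and no label tells if litters or days differed between the pools. In such bulk samples fewer cells of a type and less RNA per cell cannot be told apart.

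The labelled tissue was checked against marker genes of its cells. All 8 podocyte markers with a value, all 10 endothelial markers and all 7 mesangial and pericyte markers were detected. Some markers of other cells were detected too, with 9 of 10 for proximal tubule and 5 of 8 for distal nephron. For macrophages 5 of 10 were detected, for neutrophils 3 of 8, for smooth muscle 3 of 6 and for fibroblasts 3 of 6. Of all genes 58.9% were detected. The share for proximal tubule was above this, and that for distal nephron was close to it. Those for macrophages, neutrophils, smooth muscle and fibroblasts were below it. Except for proximal tubule, these counts alone do not show that such cells were present. The proximal tubule genes Lrp2 (7.52 log2), Slc22a6 (7.41) and Slc22a8 (7.01) lay below the 99th percentile of the receptor genes described below on every array. Kap, Gatm, Aqp1, Slc34a1, Miox and Slc5a2 lay above that level on every array. Of the fibroblast list Pdgfra, Col1a1 and Col3a1 were detected, and Dcn, Lum and Dpt were not. The macrophage genes Adgre1 and Itgam and the neutrophil gene Ly6g were among the markers not detected. Among those detected were the macrophage list genes Tyrobp (9.08 log2), Lyz2 (8.83), Ptprc (8.55) and Cd68 (7.73) and the neutrophil gene S100a9 (9.18). Summed linear signals of the podocyte list lay between 22532 and 24141 on the 3 arrays and those of the proximal tubule list between 3840 and 4325. Which cell type gave the signal of any member was not tested.

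Detection was measured against olfactory and vomeronasal receptor genes, which are not known to be widely used in kidney and were read by 1210 probe sets. The 95th percentile of these lay at 6.90, 6.96 and 6.92 log2 on replicates 1, 2 and 3, and is called background. To count as detected, the log2 signal of a gene had to stand above this level in a limma fit over all genes, with a Benjamini-Hochberg adjusted p under 0.05. By this rule 33 of 83 members (39.8%) were detected, against 58.9% of all genes. With the 99th percentile of the receptor genes as background 19 members were detected (41.7% of all genes), with their median 65 (90.4%) and with a fixed linear signal of 150 as background 24 (50.2%). The median member had a signal of 6.64 log2, which is -0.29 log2 relative to background, and the median gene 7.30 log2. The reproductive tract ADAM genes made up 22 members, and outside them 32 of 61 members (52.5%) were detected. On all 3 arrays 27 members exceeded a linear signal of 150, a level the study used in its own screens (32.5%, against 51.3% of all genes). Over 500 were 9 members (10.8%, against 17.2%), and over 1000 were 4 members (4.82%, against 7.59%), namely Timp3, Timp2, Adamts5 and Adamts1. The counts over each level were thus below those over all genes in share. Probe sets differ in affinity, so an order of these levels is not an order of transcript amounts.

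**Figure D1:**
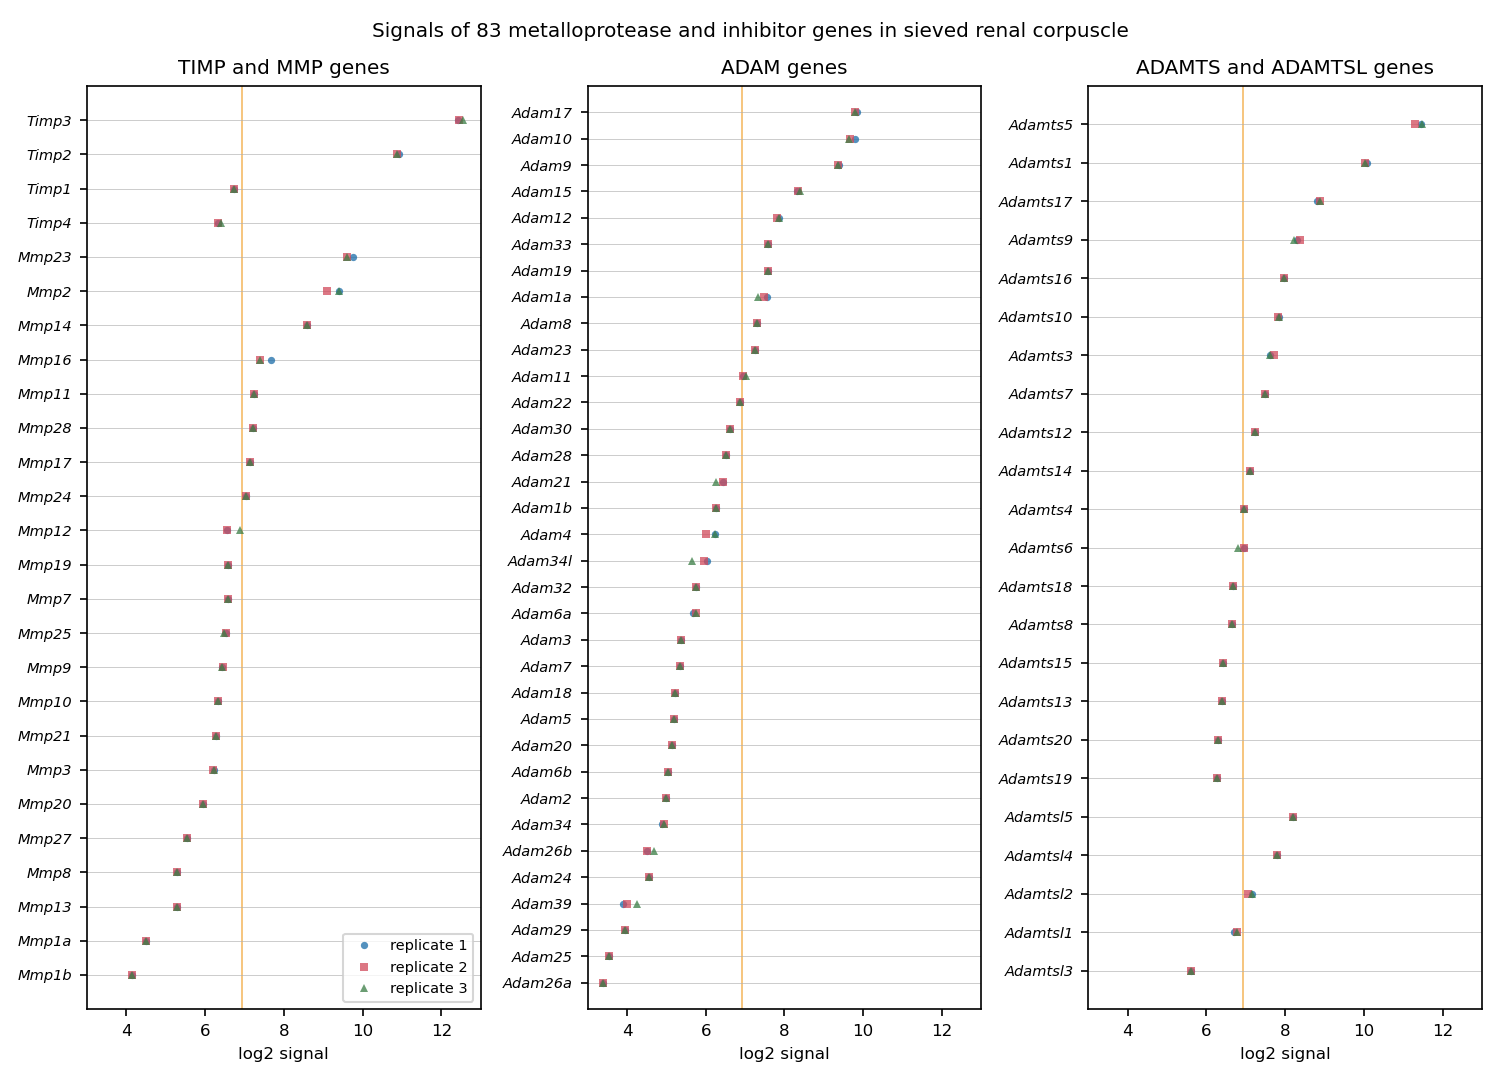
Log2 signal (horizontal axis) of each of the 83 members on the 3 arrays, with 1 symbol per replicate, ordered within each family by mean, and background as the orange line near 6.9. Symbols of 1 gene mostly lie on each other, and Timp3, Timp2, Adamts5 and Adamts1 have signals over 10 log2 on every array.

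Among the inhibitors, 2 of 4 TIMP genes were detected, Timp3 and Timp2. Timp3, the TIMP that binds to extracellular matrix and inhibits ADAM17 and aggrecan-cutting ADAMTS enzymes as well as MMPs, had signals of 12.42, 12.44 and 12.56 log2 on the 3 arrays. Its mean of 12.47 ± 0.08 log2 (SD, n = 3) is a linear signal of 5688, or 46.8 times background. Timp2, which inhibits MMPs and also takes part with MMP14 in activating pro-MMP2, gave 10.92, 10.87 and 10.87 log2. That mean, 10.88 ± 0.03 log2 (SD, n = 3), is a linear signal of 1890 and 15.5 times background. For both genes the 3 arrays lay within a narrow range far above background.

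The remaining TIMP genes did not pass. Timp1, a soluble inhibitor that is induced in injured and fibrotic kidney, read 6.72 log2 on each array, -0.20 log2 relative to background. Timp4, known mainly from heart and vessels, read 6.33, 6.33 and 6.39 log2, a mean of -0.57 log2 relative to background. Every array of both genes was below its background, and their probe sets cannot show whether a lower amount of transcript was present.

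Of 9 ADAM genes with protease activity in somatic tissues 8 were detected (88.9%, against 58.9% of all genes), of 3 neural ADAM genes without activity 1, and of 22 ADAM genes known from testis and epididymis 1 (4.55%). At the 99th percentile background, which calls 41.7% of all genes, 5 of 9 somatic proteases were called, with Adam8, Adam19 and Adam33 lost. Of the neural genes 0 of 3 were called there. Adam1a, the reproductive tract gene detected, was lost there and at a signal of 150. Adam17, the protease that releases TNF and ligands of the EGF receptor, gave 9.84, 9.80 and 9.80 log2, or 2.89 log2 above background and a linear signal of 901. Adam10, which cuts Notch receptors and cadherins, gave 9.79, 9.66 and 9.65 log2, or 2.77 above background and a linear signal of 831. Adam9, a widely expressed sheddase, gave 9.38, 9.36 and 9.36 log2, or 2.44 above background and a linear signal of 659. These 3 genes passed a signal of 500 on every array, and replicate 1 was the highest for each by at most 0.14 log2.

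The other 5 detected ADAM proteases did not pass a signal of 500. Adam15, known from endothelium and smooth muscle, read 8.32, 8.34 and 8.41 log2, 1.43 above background. Adam12, a protease of muscle and mesenchymal cells, read 7.85, 7.81 and 7.85 log2, 0.91 above background. Adam33, a mesenchymal member, and Adam19, a neuregulin sheddase, each read the same on all 3 arrays, at 7.59 and 7.57 log2. Adam8, best known from leukocytes, read 7.30 log2 on every array, a linear signal of 158 and 0.37 log2 above background. Macrophage markers summed to 2215, 2521 and 1858 in linear signal on replicates 1, 2 and 3 and neutrophil markers to 1398, 1326 and 1361, and the part of these cells in the signal of Adam8 was not tested. Adam28, known from lymphocytes and epididymis, was the 1 somatic protease not detected, at 6.53 log2 on each array.

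The neural ADAM proteins lack protease activity and act as adhesion partners at synapses. Adam23 was detected at 7.26 log2 on every array, 0.34 above background. Adam11 at 6.95, 6.95 and 7.03 log2 and Adam22 at 6.88 log2 on each array were within 0.1 log2 of background and not called. This small set thus lies around the threshold.

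The reproductive tract ADAM genes, many of which encode sperm surface proteins, had a median signal of 5.21 log2, -1.72 relative to background. Adam1a was the 1 detected, at 7.56, 7.48 and 7.34 log2 and 0.53 above background. Its neighbour Adam1b read 6.27 log2 on every array. The 21 not detected ranged from 3.38 log2 for Adam26a to 6.61 log2 for Adam30. Of 10 male germ cell markers 2 were detected (20.0%, against 58.9% of all genes), Tnp2 at 7.25 and Prm2 at 7.18 log2, and 8 were not. A pair of probe sets that name several genes hold ADAM members as well, with 5.38 log2 for the one shared by Adam26a, Adam26b, Adam34 and Adam34l and 5.21 log2 for the one shared by Adam4, both the same on all arrays and below background, and neither was used.

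**Figure D2:**
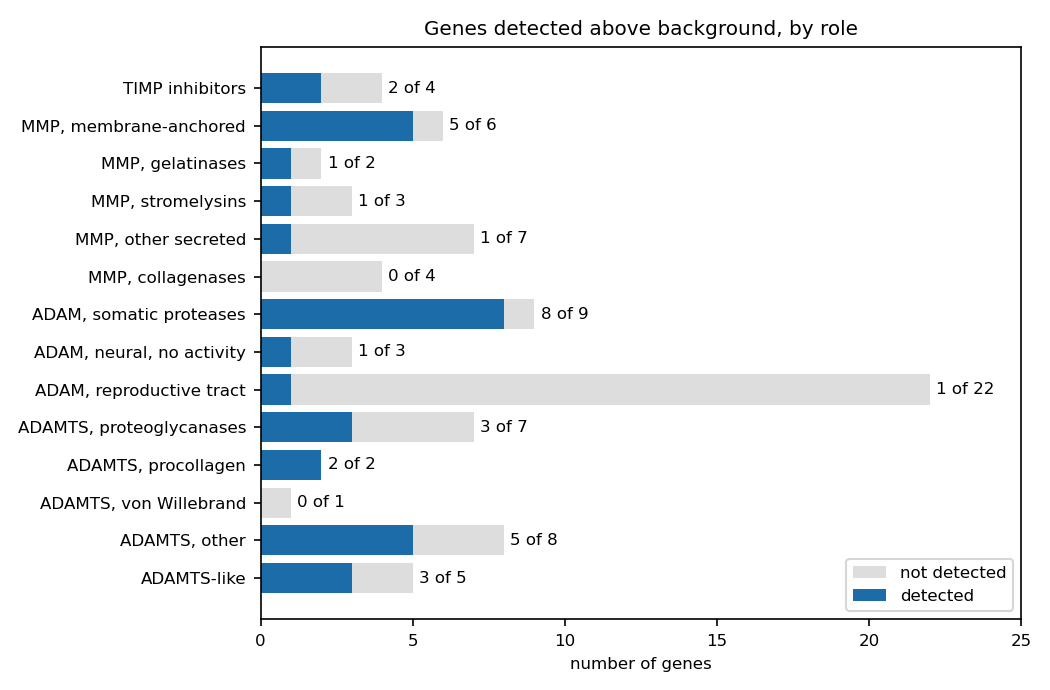
Number of members in each role (length of the whole bar) and the number detected above background (blue), with both counts printed beside the bar. Of the somatic ADAM proteases 8 of 9 were detected, of the membrane-anchored MMPs 5 of 6, of the reproductive tract ADAMs 1 of 22 and of the collagenases 0 of 4. At the 99th percentile background the first 2 counts were 5 of 9 and 2 of 6, beside 41.7% of all genes in place of 58.9%.

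In the ADAMTS family 10 of 18 genes were detected (55.6%, against 58.9% of all genes). The proteoglycanases, which cut aggrecan and versican, had 3 of 7 members detected (42.9%). Adamts5, a major aggrecan-cutting enzyme, gave 11.44, 11.30 and 11.47 log2, a mean of 11.40 ± 0.09 log2 (SD, n = 3), or a linear signal of 2710 and 22.3 times background. Adamts1, which cuts versican and aggrecan and is known for a role in kidney development, gave 10.07, 10.04 and 10.04 log2, or a linear signal of 1058 and 8.71 times background. Adamts9, a versican-cutting enzyme made by vascular endothelium, gave 8.30, 8.37 and 8.23 log2, 1.38 above background, or 0.61 with the mean over its probe sets. For Adamts5 replicate 2 was lowest and the other two arrays were close to each other. Adamts4, a further aggrecan-cutting enzyme, read 6.96 log2 on each array, 0.037 above background and not called, and Adamts8, Adamts15 and Adamts20 read 6.64, 6.43 and 6.29 log2.

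Both measured procollagen N-propeptidases, which trim fibrillar procollagens, were detected, though 1 of 2 remained called at the 99th percentile background or a signal of 150, where Adamts14 was lost, and with the mean over probe sets, where Adamts3 was lost. Adamts3, also known for processing the lymphatic growth factor VEGF-C, read 7.61, 7.71 and 7.61 log2, and Adamts14 read 7.11 log2 on every array. Adamts13, which cuts von Willebrand factor in plasma and is made mainly by liver stellate cells, was not detected, at 6.41 log2 on every array and -0.52 relative to background. Von Willebrand factor itself, Vwf, had 7.41 log2 on every array and was detected.

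Of the 8 other ADAMTS genes 5 were detected (62.5%, close to the 58.9% of all genes). At the 99th percentile background, which calls 41.7% of all genes, 3 of 8 were called. Adamts17, tied to fibrillin microfibrils and to eye and skeletal disease, read 8.81, 8.88 and 8.88 log2, 1.93 above background, or 0.69 with the mean over its probe sets. Adamts16, known from developing gonad and kidney, read 7.98 log2 on every array, 1.05 above background. Adamts10, another fibrillin-linked member, read 7.85, 7.82 and 7.85 log2, 0.92 above background. The pair known for cutting cartilage oligomeric matrix protein was detected near background, with Adamts7 at 7.49 and Adamts12 at 7.23 log2 on every array. Adamts6 at 6.95, 6.95 and 6.80 log2 lay -0.026 log2 from background, and Adamts18 at 6.67 and Adamts19 at 6.28 log2 were also not detected.

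The Adamtsl proteins share the matrix-binding parts of ADAMTS enzymes and have no protease domain. Of 5 genes 3 were detected (60.0%, close to the 58.9% of all genes), and 2 of 5 at the 99th percentile background (41.7% of all genes). Adamtsl5 read 8.19 log2 on each array, 1.27 above background. Adamtsl4, which binds fibrillin and is tied to lens dislocation, read 7.79 log2 on each array, 0.87 above background. Adamtsl2, a regulator of microfibrils, read 7.15, 7.05 and 7.15 log2, 0.19 above background. Adamtsl1 at 6.71, 6.78 and 6.78 log2 and Adamtsl3 at 5.61 log2 were not detected.

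Among the MMP genes 8 of 22 were detected (36.4%, against 58.9% of all genes), 5 of the 6 membrane-anchored ones among them. At the 99th percentile background and at a signal of 150 alike 2 of these 6 were called, with Mmp16, Mmp17 and Mmp24 lost. Of all genes 41.7% and 50.2% were called at these levels. Mmp23, an unusual member held in the membrane by its N-terminal end until it is cut free, gave 9.75, 9.61 and 9.61 log2, or 2.73 above background and a linear signal of 807. Mmp14, the membrane-type enzyme that activates pro-MMP2, gave 8.58 log2 on every array, or 1.66 above background and a linear signal of 384. Mmp16, another activator of pro-MMP2, gave 7.68, 7.39 and 7.39 log2, 0.56 above background. Replicate 1 stood apart for Mmp16, and its range of 0.29 log2 was the widest of any detected member. Mmp17 at 7.13 and Mmp24 at 7.05 log2 on every array were detected close to background, and Mmp25, known from leukocytes, was not, at 6.54, 6.52 and 6.47 log2.

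Mmp2, the gelatinase that cuts denatured collagen and type IV collagen, gave 9.39, 9.11 and 9.39 log2, a mean of 9.29 ± 0.16 log2 (SD, n = 3), or 2.37 above background and a linear signal of 628. Replicate 2 was the lowest for Mmp2, with the other two arrays nearly equal. Of the summed marker signals, those of podocytes (24141, 22532 and 22725 on replicates 1, 2 and 3), endothelium (22997, 21852 and 22373) and neutrophils (1398, 1326 and 1361) were lowest on replicate 2 as well. Those of smooth muscle (1045, 1438 and 1310), fibroblasts (1097, 1121 and 1071) and mesangial cells (14823, 15412 and 15549) were not, and the part of any cell type in this difference was not tested. Mmp9, the gelatinase of neutrophils and macrophages, was not detected, at 6.43, 6.45 and 6.43 log2 and -0.49 relative to background. Of the genes whose products act together in pro-MMP2 activation, Mmp2, Mmp14 and Timp2, each was detected on these arrays.

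The secreted MMP genes outside the gelatinases were mostly at or under background. Mmp11, a stromelysin that is activated inside the cell, read 7.24, 7.25 and 7.25 log2, 0.32 above background. Mmp28, an MMP of epithelia, read 7.22 log2 on every array, 0.30 above background. The collagenases Mmp1a, Mmp1b, Mmp8 and Mmp13, which cut fibrillar collagen, had 0 of 4 detected and means from 4.14 to 5.29 log2. The stromelysins Mmp3 and Mmp10 read 6.22 and 6.32 log2 in the mean. Matrilysin, Mmp7, which tubule epithelium makes after injury, read 6.57 log2 on every array, -0.35 relative to background, and Mmp12, the macrophage elastase, read 6.56, 6.56 and 6.88 log2. Mmp19, Mmp20, Mmp21 and Mmp27 read 6.58, 5.95, 6.28 and 5.53 log2.

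Many undetected members lie side by side in the genome. In the gene order of mouse assembly GRCm38.p6, 10 MMP genes are direct neighbours on chromosome 9 in the order Mmp13, Mmp12, Mmp1b, Mmp3, Mmp1a, Mmp10, Mmp8, Mmp27, Mmp20 and Mmp7, and 0 of 10 were detected. Chromosome 8 holds a run of 5 ADAM genes, Adam18, Adam3, Adam5, Adam32 and Adam9, of which Adam9 alone was detected. It also holds 2 runs of 4 reproductive tract ADAM genes, Adam24 to Adam39 and Adam26b to Adam34, with 0 of 4 detected in each. By contrast the neighbours Adamts1 and Adamts5 on chromosome 16 were both detected. Neighbouring members arose by duplication and resemble each other, so they are not independent observations, and short probes can be shared between near-identical copies.

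Promoter sequences were drawn from RefSeq (GRCm38.p6) for 52 of 83 members, 23 detected and 29 not. The stretch read was the 250 bases before the annotated start. The count of CpG dinucleotides in it ranged from 4 to 35 with a median of 17 in detected members, and from 0 to 39 with a median of 1 in members not detected. Over all genes with a promoter the medians were 16 for 9403 detected genes and 4 for 6211 genes not detected, the same order as in the members. In the members many of the low counts belonged to related copies. The undetected reproductive tract ADAMs (10 promoters) and undetected members of chromosome 9 (10 promoters) each had a median of 0.5. The 9 undetected members outside these sets had a median of 15, with a wide range from 1 to 39. Low counts were found among them too, in Mmp21 (1), Adamts13 (1), Timp4 (2) and Timp1 (6). Adamtsl3 (39 CpG), Adamts20 (32), Adam22 (17) and Mmp25 (17) were not detected in spite of many CpG dinucleotides, and Adam1a with 4 and Adam19 with 5 were detected with few. The 100 bases before the start of 3 members are shown because these genes had signals well above background and their stretches hold different numbers of CpG, with each CG in capitals and read 5′ to 3′ on the gene's strand. They are Timp3 on the plus strand (chr10:86300312-86300411, 10 CG), Adam17 on the minus strand (chr12:21373633-21373732, 14 CG) and Adamts1 on the minus strand (chr16:85803114-85803213, 5 CG).
Timp3: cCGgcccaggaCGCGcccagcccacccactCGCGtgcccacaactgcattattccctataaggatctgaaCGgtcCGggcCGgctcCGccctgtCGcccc
Adam17: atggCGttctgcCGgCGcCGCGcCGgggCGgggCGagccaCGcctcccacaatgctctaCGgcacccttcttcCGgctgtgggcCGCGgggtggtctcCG
Adamts1: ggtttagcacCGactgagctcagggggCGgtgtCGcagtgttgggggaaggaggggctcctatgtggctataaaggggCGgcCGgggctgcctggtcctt

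The motif TGANTCA, the letters bound by AP-1 factors such as FOS and JUN, was searched in the same 250 bases, and since it reads alike on both strands 1 search covers them. It was found in 6.87% of 27025 promoters. Among members it was present in 0 of 23 detected and in 10 of 29 not detected (34.5%), against 4.24% of detected and 8.94% of undetected genes overall. Of the 10 promoters, 7 belong to members on chromosome 9 (Mmp13, Mmp1b, Mmp3, Mmp1a, Mmp10, Mmp20 and Mmp7) and 3 to reproductive tract ADAM genes of chromosome 8 (Adam20, Adam25 and Adam29), and the related copies share sequence by descent. When every annotated start was read for the 4 members with several, the motif was also found for Adam19 and Mmp12, which makes 1 of 23 and 11 of 29. The 100 bases before the start of 4 undetected MMP genes are shown because each holds the motif, in capitals, a short way before the start. All lie on the plus strand, Mmp3 at chr9:7445722-7445821, Mmp10 at chr9:7502242-7502341, Mmp13 at chr9:7272414-7272513 and Mmp1a at chr9:7464041-7464140. The first base of the motif is at -46 in Mmp3, -63 in Mmp10, -35 in Mmp13 and -73 in Mmp1a, counted back from the base before the start as -1.
Mmp3: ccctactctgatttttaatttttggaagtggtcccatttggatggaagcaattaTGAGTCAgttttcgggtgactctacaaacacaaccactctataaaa
Mmp10: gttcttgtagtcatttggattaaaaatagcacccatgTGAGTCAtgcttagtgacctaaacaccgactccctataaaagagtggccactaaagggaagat
Mmp13: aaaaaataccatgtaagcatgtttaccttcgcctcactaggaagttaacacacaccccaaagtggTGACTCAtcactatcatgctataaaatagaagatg
Mmp1a: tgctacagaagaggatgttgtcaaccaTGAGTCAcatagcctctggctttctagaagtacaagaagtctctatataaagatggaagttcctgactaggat

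A letter match is not a binding site, and binding was not measured. Genes for AP-1 subunits and other immediate early genes, which rise fast in handled tissue, were read in the same samples. Of 12 such genes 11 were detected (91.7%, against 58.9% of all genes), among them Jun at 9.44, 9.73 and 9.82 log2, Fosb at 7.94, 8.16 and 8.13 log2 and Fos at 7.04, 7.25 and 7.25 log2. These 3 were lowest on replicate 1. Several of the detected genes lay near background, with Fos 0.25, Junb 0.28, Ier2 0.29, Egr1 0.53 and Atf3 0.13 log2 above it. All of these were below the 99th percentile of the receptor genes on every array. Myc was not detected, at 6.30 log2. The 4 MMP genes whose promoters are printed above lay 0.61 to 2.42 log2 under background, where a change between arrays may not be seen, and the part of AP-1 in their signals was not tested.

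**Figure D3:**
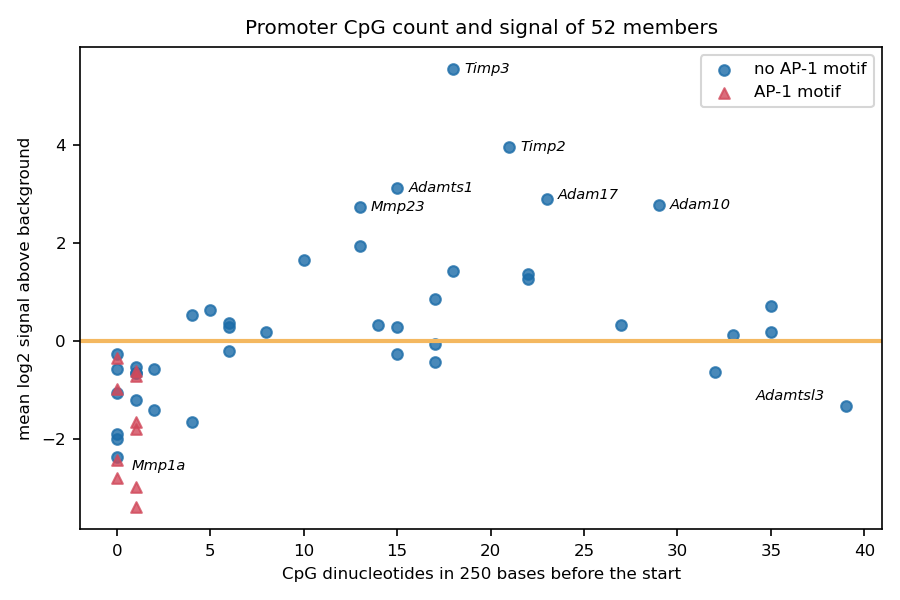
Number of CpG dinucleotides in the 250 bases before the start (horizontal axis) and mean log2 signal above background (vertical axis) of the 52 members with a promoter sequence, with triangles for promoters that hold the AP-1 motif and the orange line at background. All 10 triangles lie below background at 0 or 1 CpG.

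The spread between the 3 preparations was small. Of the 33 detected members 14 held 1 value on all arrays, 11 held 2 values and 8 held 3. The median SD of the detected members was 0.018 log2 and that of all detected genes 0.0095 log2. The number of detected members more than 2-fold apart between arrays was 0, against 0.409% of detected genes. Over 0.25 log2 apart were 2 members, Mmp2 and Mmp16 (6.06%, against 9.54% of detected genes). Equal values on several arrays are common throughout the deposited table, where 54.2% of genes hold 1 value on all arrays, so an SD near 0 is not an error near 0.

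Members with more than 1 probe set show how far a call can depend on the probe set. For Adamts9 all 6 probe sets had means above the mean background, from 7.13 to 8.30 log2. Adamts17 had 3 of 5 above it, in a range from 6.37 to 8.86 log2 with the top pair at 8.81 and 8.86. Adamts3 had 4 of 16 above it, from 3.88 to 7.64 log2, and with the mean over probe sets Adamts3 was not detected. Neither probe set of Adamtsl1 lay above it. Calls for the other 79 members rest on 1 probe set each.

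**Figure D4:**
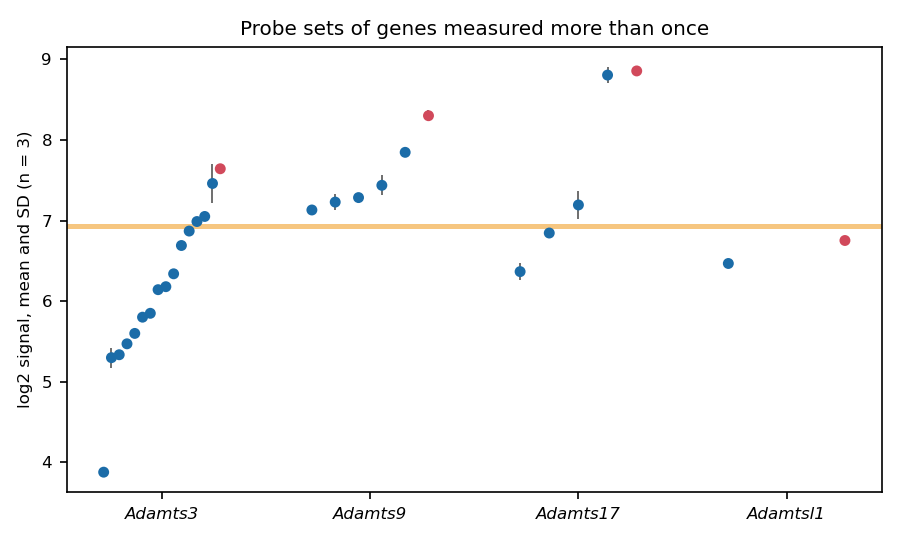
Mean log2 signal with SD over 3 arrays (vertical axis) of each probe set of the 4 members with several, sorted by mean within a gene, with the probe set used in red and background in orange. The probe sets of Adamts3 spread over 3.77 log2 and those of Adamts9 over 1.17 log2.

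Genes that work with these enzymes were read as 6 lists, in which 55 of 83 genes with a value (66.3%) were detected, against 58.9% of all genes. At the 99th percentile background 40 of these 83 were called (41.7% of all genes) and at a signal of 150 46 (50.2%). Partners of ADAM10 and ADAM17 had 8 of 9 detected (88.9%). Tspan5, Tspan15, Tspan17 and Tspan14, tetraspanins that carry ADAM10 to the surface, had means of 10.56, 9.76, 8.92 and 8.90 log2, and Tspan33 of the same group was not detected at 6.54 log2. Rhbdf1, Rhbdf2 and Frmd8, needed for ADAM17 to mature and stay at the surface, had means of 7.34, 7.50 and 7.13 log2 and were detected. The proteases and most of their partners were thus read above background in the corpuscle. Rhbdf1, Rhbdf2, Frmd8 and Tspan10 (7.33 log2), however, lay below the 99th percentile of the receptor genes on every array. Tspan5, Tspan14, Tspan15 and Tspan17 lay above that level on every array.

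Of 9 proteases and receptors that activate pro-enzymes 7 were detected (77.8%, against 58.9% of all genes). Plat, tissue plasminogen activator, had 12.16, 12.29 and 12.19 log2. The urokinase receptor Plaur had a mean of 8.30 log2, and the proprotein convertases Pcsk5 and Furin, which cut the pro-domains of ADAM, ADAMTS and membrane-type MMP enzymes, had 8.27 and 8.26 log2. Plasminogen (Plg), a liver product, and matriptase (St14), an epithelial serine protease, were not detected at 6.43 and 6.81 log2. Among 7 other inhibitors 3 were detected (42.9%), Reck, a membrane-anchored inhibitor of MMPs, at 9.14, 9.20 and 9.21 log2, with Papln at 7.30 and Tfpi2 at 7.06 log2 in the mean. Spock2, Spock1 and A2m were not, at 6.95, 6.77 and 6.46 log2.

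Of 27 membrane proteins known to be shed 21 were detected (77.8%, against 58.9% of all genes). App, the amyloid precursor protein, had a mean of 11.93 log2, VE-cadherin (Cdh5) 10.95, syndecan-4 (Sdc4) 10.27 and the TNF receptor Tnfrsf1a 9.68 log2. The EGF receptor ligand Hbegf was detected at 9.41 log2, while Btc of the same class, N-cadherin (Cdh2), the Notch ligand Dll1 and Tnf were not, at 6.92, 6.86, 6.70 and 6.14 log2. Vcam1, an adhesion molecule, spread more widely at 9.06, 9.64 and 9.38 log2. Of 19 matrix substrates 12 were detected (63.2%), with the type IV collagen chains Col4a3, Col4a4 and Col4a1 at 9.27, 8.71 and 8.42 log2 and elastin (Eln) at 8.48 log2. The proteoglycans aggrecan (Acan), versican (Vcan) and brevican (Bcan), named substrates of the proteoglycanases, were not detected, at 6.39, 5.93 and 6.79 log2, and neurocan (Ncan) was detected at 7.15 log2. The detected proteoglycanases Adamts5, Adamts1 and Adamts9 stood beside substrates of which 1 of 4 was detected, against 58.9% of all genes. The substrate detected, Ncan, lay 0.22 log2 above background and below the 99th percentile of the receptor genes on every array.

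Metallopeptidases of other families served as a comparison, with 4 of 12 detected (33.3%, against 58.9% of all genes). Mme (neprilysin), a podocyte and tubule surface peptidase, had 11.30 log2 on every array. Ece1, the endothelin-converting enzyme, had 9.87, 9.95 and 9.93 log2, and Bmp1 and Ece2 had 7.90 and 7.13 log2. The meprin subunit Mep1a of proximal tubule brush border was not detected at 6.57 log2. Of the proximal tubule markers 9 of 10 were detected, and the 1 that was not, Cubn, read 6.54 log2. Pappa2 and Tll2 were not detected at 6.58 and 6.46 log2.

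**Figure D5:**
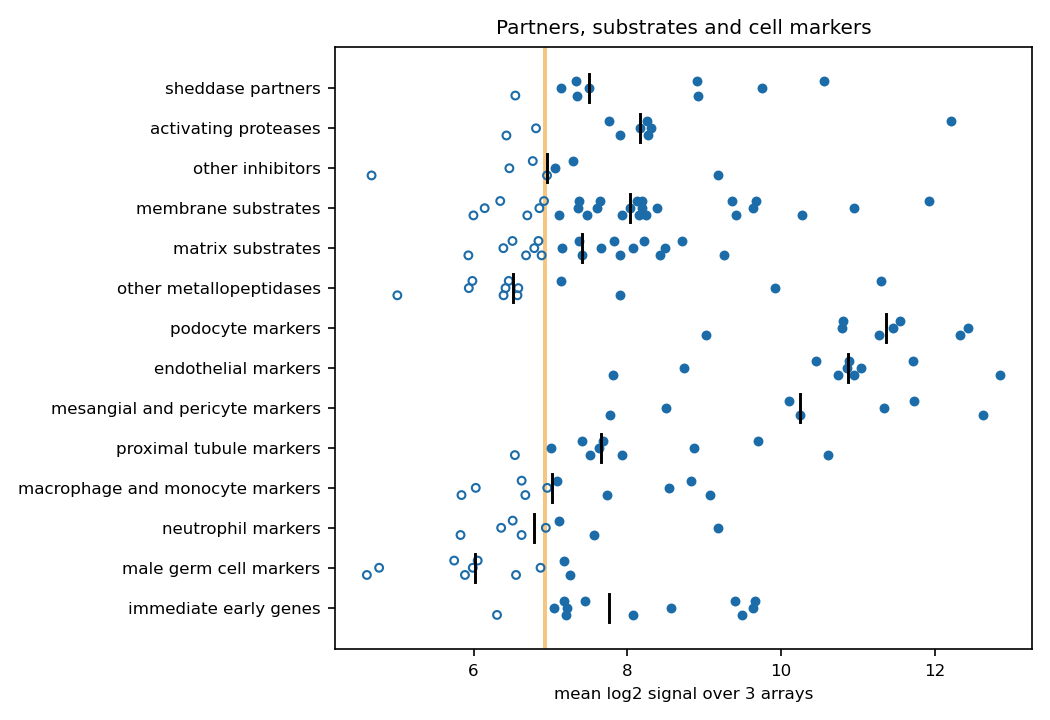
Mean log2 signal over the 3 arrays (horizontal axis) of each gene of the pathway and cell marker lists, filled where detected and open where not, with the list's median as a black bar and background in orange. Podocyte, endothelial and mesangial markers are filled throughout, and 2 of 10 male germ cell markers are filled.

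The 14 members whose calls were lost at the 99th percentile background were Adam1a, Adam8, Adam19, Adam23, Adam33, Adamts7, Adamts12, Adamts14, Adamtsl2, Mmp11, Mmp16, Mmp17, Mmp24 and Mmp28. The threshold was crossed gradually. Just above background were Mmp24 (0.12 log2 above), Adamts14 (0.19), Adamtsl2 (0.19) and Mmp17 (0.21), all detected. Adam11 (0.050) and Adamts4 (0.037) lay above background and were not called, and Adamts6 (-0.026) and Adam22 (-0.048) lay just under it.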

How the data were processed

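Per the labels, total RNA from 3 samples was amplified with a NuGEN Pico kit, labelled with biotin and hybridised to an Affymetrix mouse gene array. The authors deposited 1 table of log2 signals for 35557 probe sets, made with Affymetrix Expression Console according to the submitters' processing notes. For its version, the summary method behind the table and the genome build nothing was given in the sources used here. The table holds 0 columns of other samples, and its values run from 2.36 to 14.40. Array medians stood at 7.11, 7.11 and 7.09, and the signals were used without another normalization. No count or depth exists for arrays, and their number limits the precision.

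The platform annotation names 1 gene for 21789 probe sets, several for 1621 and none here for 12147. Where several probe sets named a gene, that of highest mean log2 signal stood for it. Linear signals are 2 raised to the mean log2 signal. Detection was a one-sided limma test (lmFit with an intercept, eBayes with a trend, limma 3.58.1 in R 4.3.3) of log2 signal minus the array's background, fitted over 19938 genes with Benjamini-Hochberg adjustment. The test was tried on simulated data. Because many signals are tied across arrays, p-values of single genes are not printed, and the calls act as a threshold slightly above background. P-values over these samples measure only the spread between them, which may be technical. Lists were described by counts beside the share over all genes.

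The members and lists were chosen with earlier results of these data known. Named genes were all TIMP genes, the 6 detected members of highest mean in each other family, members within 0.1 log2 of background or over 2-fold apart, 12 genes from the study's text or textbooks, and in each list the 4 detected genes of highest mean with up to 3 undetected ones. All further genes were named after their values were seen. Alternatives were other background levels, a fixed signal of 150, no trend, quantile normalization, the mean over probe sets, calls by all 3 arrays, leaving out each replicate and, chosen after seeing the data, the spread of genes with 3 different signals. List genes without a value, and Adamts2 and Mmp15, were not analysed here.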

Additional observations from a re-analysis of the deposited data

How the results depend on the processing

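The count of 33 detected members depended on the background level. By construction a higher level calls fewer genes and a lower one more. At the 99th percentile of the receptor probe sets 19 members were detected (41.7% of all genes), of MMP genes 3 and of ADAM genes 5. At their median 65 were detected (90.4% of all genes), with 4 TIMP, 18 MMP, 20 ADAM, 18 ADAMTS and 5 Adamtsl genes. At a fixed signal of 150, 24 members and 3 MMP genes were detected. The 33 detected members stayed detected without a trend, after quantile normalization and without any 1 replicate, with totals from 33 to 35 (57.1% to 59.5% of all genes) when 1 replicate was left out (Adam11 and Adamts4 were gained without replicate 2). Requiring every array above background gave 34, with Adamts4 gained. Adamts3 was lost with the mean over probe sets, and Mmp24 with the spread of genes with 3 different signals, an alternative added after seeing the data.

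Levels near background changed sign. Against the 99th percentile Adam11 lay at -0.59 log2, Adam8 -0.26, Adamts4 -0.60, Adamtsl2 -0.44, Mmp11 -0.31, Mmp16 -0.072 and Mmp28 -0.34. Against a signal of 150 Adam11 lay at -0.25, Adamts4 -0.27, Adamtsl2 -0.11 and Mmp28 -0.0064. Against the median Adam22 lay at 1.501, Adamts13 1.03, Adamts6 1.52, Mmp7 1.20, Mmp9 1.06, Timp1 1.35 and Timp4 0.98, and leaving out 1 replicate moved Adamts6 between -0.064 and 0.022, above 0 without replicate 3. Calls for Timp3, Timp2, Adamts5, Adamts1, Adam17, Adam10, Adam9, Mmp23, Mmp2 and Mmp14 held under every alternative run. No paired analysis was possible because there is only 1 group of samples. Ties and 3 arrays limit all spreads, and a low signal gives no upper limit on transcript.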
